A study of Mus musculus with 8 samples.

Results

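The genes of the cytosolic ribosomal proteins were examined in mouse ventricles at postnatal day 7. The family was taken by gene symbol: every symbol made of Rpl or Rps and a number, with the letter forms used for this family, plus Rplp0, Rplp1, Rplp2 and Rpsa, and without symbols marked as pseudogenes. This gave 83 of the 37982 genes in the authors' table. They fall into 31 small subunit proteins, 42 large subunit proteins, 3 stalk proteins and 7 paralogues that replace or resemble a core protein (Rpl3l, Rpl7l1, Rpl10l, Rpl22l1, Rpl39l, Rps27l and Rps4y2).

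The 8 samples were 3 triple mutant, 3 double mutant and 2 wild type ventricles of C57BL/6 mice, with the atria trimmed off. The sample names code the double mutant as mkmy and the triple mutant as mkmyn; as known from the study, the double mutant carries altered Mkl2 and Myh7, and the triple mutant carries an altered Nkx2-5 in addition, which the design text calls the modifier. The labels give neither the zygosity nor the sex of the pups. The comparison of the triple mutant with wild type asks what differs in the diseased state, and that with the double mutant asks what differs when the modifier is present.

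The cytosolic ribosome reads mRNA in its small subunit and joins amino acids in its large subunit, and each protein of the core is present in 1 copy per particle apart from the acidic stalk proteins. The stalk, made of Rplp0 with Rplp1 and Rplp2, calls the elongation factors to the particle. Ribosomal protein mRNAs share a pyrimidine-rich start that lets mTOR signalling set their translation together. The genes are also known for the many processed pseudogenes that mammalian genomes hold of them, so that a short read from such an mRNA can match several places.

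How much of a coding sequence recurs elsewhere was therefore set beside each level. Every 50-base stretch (50-mer) of a member's coding sequence was looked up in the annotated transcripts of all other genes of GENCODE M21, on the GRCm38 build. Shown next are Rps26 and Rps24, which passed the threshold in a comparison and have a listed copy above 1 FPKM. Each is the coding sequence from its start codon to base 300, 5′ to 3′, on the strand of the gene. Capitals mark bases that lie in at least 1 50-mer found in another gene.
Rps26, chromosome 10: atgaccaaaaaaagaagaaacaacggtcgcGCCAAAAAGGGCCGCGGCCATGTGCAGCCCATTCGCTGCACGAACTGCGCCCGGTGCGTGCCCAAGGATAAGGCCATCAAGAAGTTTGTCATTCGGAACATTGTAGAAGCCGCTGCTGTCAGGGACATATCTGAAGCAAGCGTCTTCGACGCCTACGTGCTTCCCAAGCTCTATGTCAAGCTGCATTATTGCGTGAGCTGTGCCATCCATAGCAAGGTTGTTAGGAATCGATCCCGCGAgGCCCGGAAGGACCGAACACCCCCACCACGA
Rps24, chromosome 14: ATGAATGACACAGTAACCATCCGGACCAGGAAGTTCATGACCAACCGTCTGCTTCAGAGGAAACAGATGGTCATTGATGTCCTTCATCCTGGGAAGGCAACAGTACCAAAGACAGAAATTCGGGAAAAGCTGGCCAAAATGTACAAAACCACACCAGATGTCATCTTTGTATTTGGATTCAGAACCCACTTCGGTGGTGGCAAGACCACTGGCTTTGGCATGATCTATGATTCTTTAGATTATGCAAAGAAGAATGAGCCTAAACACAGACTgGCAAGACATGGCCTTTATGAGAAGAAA
The 345 coding bases of Rps26, a 40S protein at the exit of the mRNA channel, hold 314 bases in shared stretches. For Rps24, a 40S protein mutated in Diamond-Blackfan anaemia in humans, they are 389 of 399.

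Shared sequence was the rule in the family. A coding sequence was at hand for 82 members, and the median member had 90.2% of its 50-mers in at least 1 other gene. In 29 members every 50-mer was shared, in 15 fewer than 50% were, and 3 had none, among them the paralogues Rpl3l and Rpl39l. A near-identical copy, meaning another gene that holds at least 50% of the member's 50-mers, existed for 65 members. Over members these made 194 pairs, 177 of them with a pseudogene, and Rpl21 had the most, with 12. The table lists 148 of these copies as genes of their own.

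The authors deposited 1 FPKM (fragments scaled to transcript length and library size) per gene and group, so every level that follows is their single group value, without a spread between animals. FPKM is scaled to length, but that alone does not make levels of different genes comparable where sequence is shared with other genes. FPKM keeps no depth, so the depth per sample is unknown. Levels in bulk tissue cannot tell fewer cells of a type from less RNA per cell. Rpl13 had no estimate in any group because the table marks its locus as having too many fragments. Rpsa had none in the triple mutant for the same reason. The locus listed for Rpl13 overlaps 159 other genes, so the mark does not show that Rpl13 itself was abundant. Rpl13a stands in the table only joined with Flt3l and is not a member. The gene ID given for Rpl24 belongs to Zbtb11 in GENCODE M21, so the Rpl24 values are uncertain, and Rps4y2 is named Rps4l there, a transcribed processed pseudogene on chromosome 6.

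Levels differed widely within a particle whose core proteins are present in equal numbers. The median member stood at 18.1 FPKM in the triple mutant (81 members with an estimate), 18.1 in the double mutant (82) and 17.8 in wild type (82). The maximum was 1624 FPKM in the triple mutant, 1882 in the double mutant and 1825 in wild type, and the minimum was 0 in each group. By comparison, the 76 mitochondrial ribosomal protein genes in the table had similar medians (22.3 FPKM in the triple mutant, 22.0 in the double mutant and 20.1 in wild type) but no member under 1 FPKM in any group. Shared sequence was not counted for the mitochondrial genes, so these medians do not rank the sets by abundance.

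**Figure D1:**
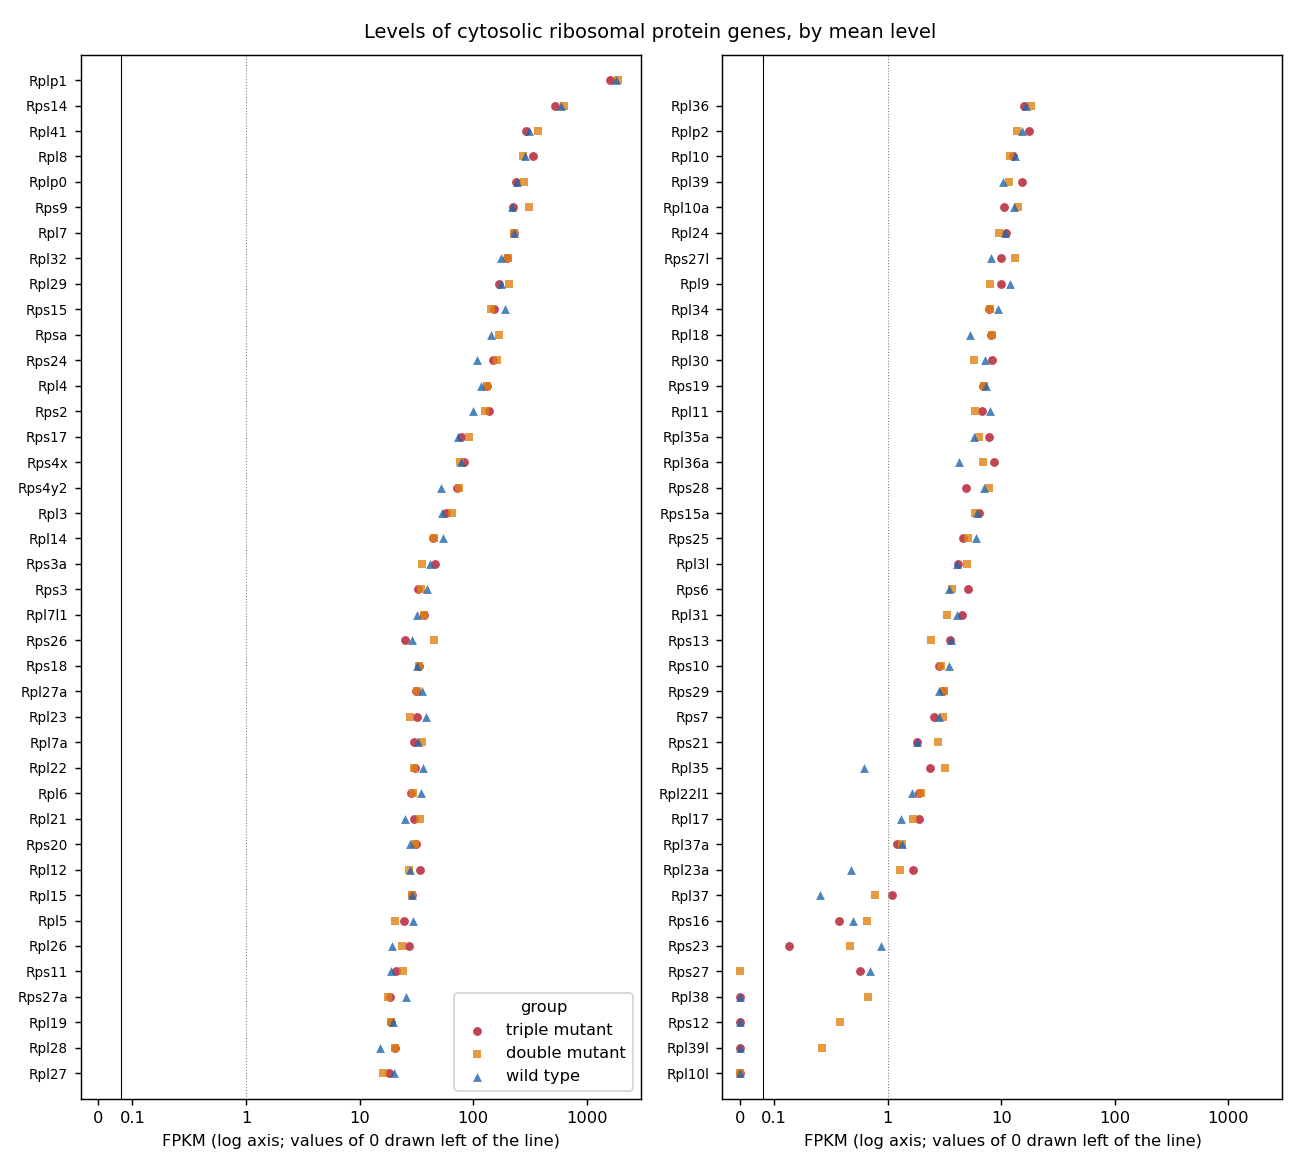
FPKM (log axis) of 79 members with an estimate, ordered by mean level down the left and then the right panel; circles are the triple mutant, squares the double mutant and triangles wild type, 1 value per group, and values of 0 are drawn left of the solid line. The 3 groups nearly coincide for most members, while members differ among themselves between 0 and 1882 FPKM.

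The stalk protein Rplp1 was the highest member, at 1624 FPKM in the triple mutant, 1882 in the double mutant and 1825 in wild type. It alone held 28.7% of the family's summed FPKM in the triple mutant, where the sum lacks Rpsa, 29.5% in the double mutant and 30.7% in wild type. Its partners were lower. Rplp0, the base of the stalk, had 237.9 FPKM in the triple mutant, 278.3 in the double mutant and 243.6 in wild type. Rplp2, the other acidic protein, had 17.7 in the triple mutant, 13.7 in the double mutant and 15.2 in wild type. None of the 3 stalk genes had an authors' q-value under 0.05 in any comparison.

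Among small subunit genes Rps14, which lies in the platform of the 40S subunit, was the highest, at 521.8 FPKM in the triple mutant, 628.6 in the double mutant and 594.6 in wild type. Rps9 followed, with 225.5 FPKM in the triple mutant, 308.2 in the double mutant and 221.7 in wild type. Rpsa, a late-joining 40S protein once described as a laminin receptor, had 170.6 FPKM in the double mutant and 144.8 in wild type. Of the large subunit, Rpl41, the smallest protein of the particle, was the highest by the mean of the groups, with 291.6 FPKM in the triple mutant, 376.0 in the double mutant and 309.6 in wild type. Rpl8, which lies close to the peptidyl transferase centre, had 336.3 FPKM in the triple mutant, above Rpl41 there, 275.4 in the double mutant and 286.0 in wild type. The 6 highest members together held 57.2% of the family's sum in the triple mutant, where the sum lacks Rpsa, 58.7% in the double mutant and 58.7% in wild type.

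At the other end, 5 core members were under 1 FPKM in every group: Rps16, Rps23, Rps27, Rps12 and Rpl38. Rps12 and Rpl38 were listed at 0 in the triple mutant and wild type, and Rps27 in the double mutant. All 5 had every coding 50-mer in another gene. In contrast, 14 members were at 100 FPKM or more in every group with an estimate. Of these 14, 5 shared fewer than 50% of their 50-mers and 1, Rpl41, shared all.

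The level of a core member was lower where more of its sequence was shared. Without paralogues, the 10 members under 50% shared had a median of 82.2 FPKM in the triple mutant, 83.8 in the double mutant and 77.8 in wild type. For members from 50% to under 100% the medians were 26.2 FPKM in the triple mutant, 28.1 in the double mutant and 27.6 in wild type. For members shared in full they were 9.26 in the triple mutant, 7.88 in the double mutant and 9.37 in wild type. Spearman's rho between the shared percentage and FPKM was -0.41 in the triple mutant (n = 72 genes above 0), -0.43 in the double mutant (n = 74) and -0.41 in wild type (n = 73). These points are genes of the same libraries and not independent replicates. Single members departed from the pattern: Rpl41 was shared in full and still the third by mean level. For Rpl41 this rests on the 26 50-mers of 75 coding bases. Its longest transcript has 695 bases, and sequence outside the coding part was not looked up for any member. How the authors' counting treated reads with several matches is not given in the sources used here, and its part in these levels was not tested.

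**Figure D2:**
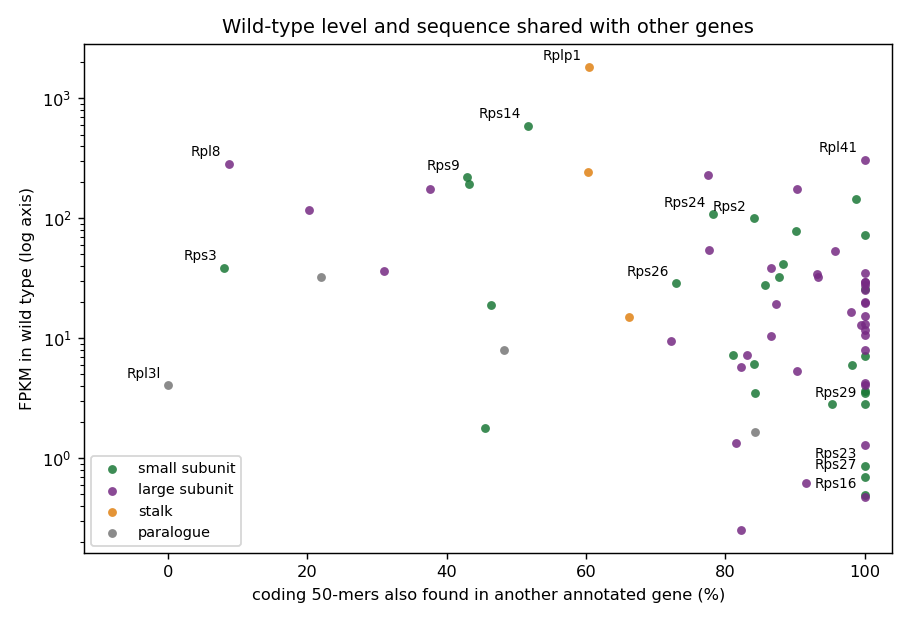
FPKM in wild type (log axis) against the percentage of a member's coding 50-mers that also occur in another annotated gene; points are 74 members above 0 FPKM, coloured by role. The members under 1 FPKM lie at the right, where most or all of the sequence is shared, and Rpl3l stands at 0%.

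The genes that hold copies were listed with signal, which need not all come from the shared stretches. Some are annotated as protein-coding, such as Uimc1, counted for Rpl29, with 14.7 FPKM in the triple mutant, 17.0 in the double mutant and 15.1 in wild type. Summed over the near-identical copies in the table, FPKM was 571.3 in the triple mutant, 504.7 in the double mutant and 518.6 in wild type, against 5658 in the triple mutant, 6389 in the double mutant and 5944 in wild type for the members. The triple mutant's sum of members lacks Rpsa. Over members with an estimate in all 3 groups the sums were 5658 FPKM in the triple mutant, 6218 in the double mutant and 5800 in wild type. Of the 61 members with at least 1 copy in the table, 11 were lower than the sum of their copies in every group, among them Rps15a, Rps23, Rpl5, Rpl17, Rpl23a, Rpl35, Rpl37, Rpl37a and Rpl38. For Rps29, the copy Gm14303 was listed at 7.44 FPKM in the triple mutant, 0 in the double mutant and 5.11 in wild type, while Rps29 itself had 3.04 in the triple mutant, 3.11 in the double mutant and 2.84 in wild type.

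Paralogues were mostly low. Rpl3l, the striated muscle form of Rpl3, had 4.17 FPKM in the triple mutant, 4.96 in the double mutant and 4.07 in wild type, while Rpl3 had 57.7 in the triple mutant, 65.4 in the double mutant and 53.6 in wild type. The coding sequence of Rpl3l shares no 50-mer with any other annotated gene. Rpl10l and Rpl39l, known from the testis, were at 0 FPKM in all groups except for Rpl39l at 0.261 in the double mutant. Rps27l had 9.92 FPKM in the triple mutant, 13.1 in the double mutant and 8.05 in wild type. Rpl22l1 stayed below it, with 1.87 FPKM in the triple mutant, 1.98 in the double mutant and 1.64 in wild type. Rpl7l1 had 36.8 FPKM in the triple mutant, 37.1 in the double mutant and 32.4 in wild type, but its locus overlaps 19 other genes. Rps4y2 had 72.8 FPKM in the triple mutant, 75.2 in the double mutant and 52.1 in wild type.

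As a share of the FPKM of all genes with an estimate, the family held 1.75% in the triple mutant, 1.92% in the double mutant and 1.84% in wild type. Genes that lack an estimate are outside these sums, and Rpsa is missing from the triple mutant. With 1 value per group, no error could be given for these shares.

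For changes between groups the call used is the authors' q-value under 0.05, from the test of Cuffdiff, which they adjusted over all genes and all 3 comparisons. A standard error was taken from their log2 fold change divided by their test statistic; it assumes that the statistic is a change over its error. The median of this error over the members was 0.43 on the log2 scale in each comparison, but it differed widely between members. In the triple mutant against wild type it was 0.23 for Rpl8 and 1.29 for Rps28. The median is therefore no limit for a single member, whose change has to be set beside its own error. Cuffdiff takes p from a null of its own: in all 72 tested members of each comparison, its p was below that of a normal deviate of the same size, so the error and the p are not interchangeable. The comparisons share groups, so their results are not independent of each other.

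In the triple mutant against wild type, 1 ribosomal protein gene was called higher and none lower. Rps2, a 40S protein at the entry of the mRNA channel, had 138.6 FPKM in triple mutant ventricles, against 100.2 FPKM in wild type ventricles, with 128.7 in the double mutant. In the authors' deposited table this is a 1.38-fold change (log2 fold change 0.47, error 0.24 as above, q = 0.0496 by Cuffdiff). The call of Rps2 is lost when the authors' p-values are adjusted within this comparison alone, where its Benjamini-Hochberg value is 0.059. The gene lies at chr17:24855061-24858874 (mm9), in a locus that also holds Snora64, Snora78 and Snhg9, each listed at 0. Its 10 near-identical copies are pseudogenes of which the 6 in the table were under 1 FPKM in every group.

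The members' call rate was near that of all genes. Of all 12986 genes tested, 1.52% were called (1.16% higher and 0.362% lower), and of 72 tested members 1 was. At an unadjusted p under 0.05 the members gave 7 higher and 3 lower, or 13.9%, beside 12.1% of all genes tested. The members' median log2 fold change was 0.03 (-0.046 after correction for transcript length), with 38 higher and 34 lower, against -0.003 over all tested genes, and 56 of 72 members lay within 1.25-fold. The median was 0.01 for the small subunit and 0.01 for the large subunit.

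Among members at 1 FPKM or more in both groups, the largest differences that did not pass lay in genes of low or middle level. Rpl36a, an X-linked 60S protein, had 8.59 FPKM in the triple mutant and 4.22 in wild type (q = 0.0738 in the authors' deposited table, by Cuffdiff). Rpl39, which lines the exit tunnel, had 15.3 in the triple mutant and 10.4 in wild type. Rpl18 had 8.19 in the triple mutant and 5.30 in wild type, with an error of 1.16 on the log2 scale that exceeds its log2 fold change of 0.63 in the authors' deposited table. On the lower side, Rps28 had 4.92 FPKM in the triple mutant and 7.07 in wild type. Rps27a, made as a fusion with ubiquitin, had 18.6 in the triple mutant and 25.8 in wild type. Rps25, which some viral mRNAs need for internal initiation, had 4.62 in the triple mutant and 6.00 in wild type. The q-values of these 5 genes in the authors' deposited table, by Cuffdiff, lay between 0.324 and 0.869.

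In the triple mutant against the double mutant, 2 members were called lower and none higher, among them Rps26. Rps26 had 25.3 FPKM in triple mutant ventricles, against 45.6 FPKM in double mutant ventricles, with 28.9 in wild type. It was 1.8-fold lower in the authors' deposited table (log2 fold change -0.85, error 0.38, q = 0.0114 by Cuffdiff). The double mutant had the highest Rps26 level of the groups, but this gene was called only between the mutants. Neither mutant passed the threshold for Rps26 against wild type.

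Rps26 (chr10:128061586-128063562, mm9) has 1 copy, Rps26-ps1, at 4.68 FPKM in the triple mutant, 7.02 in the double mutant and 6.63 in wild type. For Rps26 the sum kept the order of the gene itself, with 30.0 FPKM in the triple mutant, 52.6 in the double mutant and 35.5 in wild type, and a log2 ratio of -0.81 for the triple over the double mutant. Sums of FPKM of a gene and a copy of other length are approximate, and no test of them was possible.

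**Figure D3:**
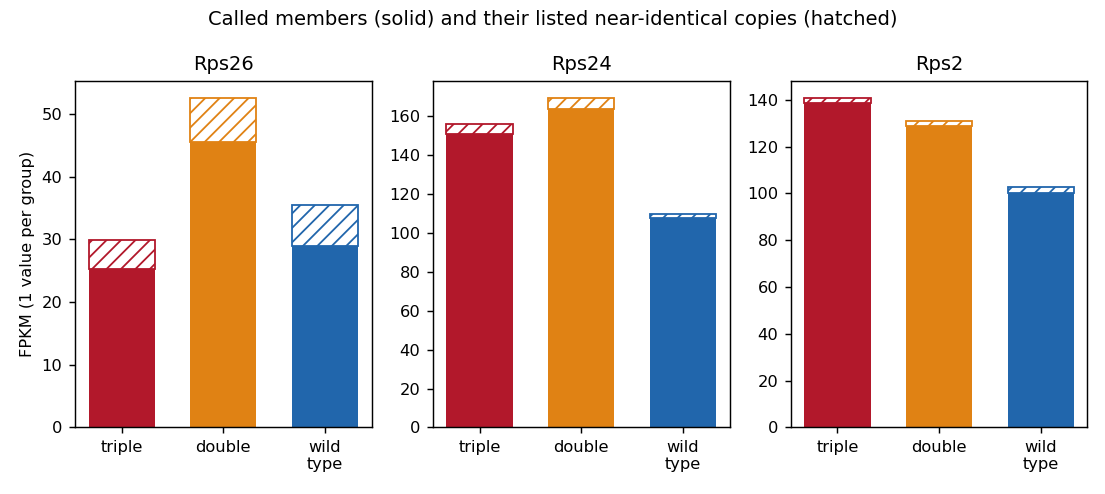
FPKM of the called members Rps26, Rps24 and Rps2 (solid) with the summed FPKM of their near-identical copies in the table stacked on top (hatched), for the triple mutant, double mutant and wild type; each bar is 1 group value with no error. The copies make up a small part of each bar.

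Over all 12786 genes tested in this comparison 1.25% were called (0.704% higher and 0.547% lower), beside 2 of 72 members. An unadjusted p under 0.05 was found for 2 members higher and 5 lower, or 9.72%, beside 8.45% of all genes tested. The median log2 fold change of the members was -0.02 (0.00027 after correction for transcript length), against -0.001 over all tested genes, with 30 higher and 42 lower, and 54 of 72 lay within 1.25-fold. Rps28 had 4.92 FPKM in the triple mutant and 7.79 in the double mutant, and an error (1.19) above its log2 fold change of -0.66 in the authors' deposited table. Summed with its listed copies it had 9.15 FPKM in the triple mutant and 9.53 in the double mutant. The highest log2 fold changes were those of Rps13 (3.53 FPKM in the triple mutant and 2.43 in the double mutant), Rpl30 (8.36 in the triple mutant and 5.77 in the double mutant) and Rps6, the substrate of S6 kinase (5.10 in the triple mutant and 3.65 in the double mutant). None of these passed. Of the highest genes, Rps9 gave a log2 fold change of -0.45 that missed the threshold (q = 0.121 by Cuffdiff in the authors' deposited table). Rpl8 was the one among the 6 highest whose value was above that of the double mutant, also without passing.

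In the double mutant against wild type, 2 members were called higher and none lower, among them Rps24. Rps24 had 163.5 FPKM in double mutant ventricles, against 107.8 FPKM in wild type ventricles, with 151.1 in the triple mutant. It was 1.52-fold higher by the authors' deposited table (log2 fold change 0.60, error 0.29, q = 0.0271 by Cuffdiff), and the same gene gave 1.40-fold with q = 0.0857 for the triple mutant over wild type. It lies at chr14:25309903-25315368 (mm9), overlaps no other listed gene, and its copy Rps24-ps3 had 4.76 FPKM in the triple mutant, 6.14 in the double mutant and 2.14 in wild type.

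In this comparison 2.65% of all 13034 tested genes were called (1.89% higher and 0.767% lower), again beside 2 of 72 members. At an unadjusted p under 0.05 there were 11 members higher and 4 lower, or 20.8%, beside 16.3% of all genes tested. The median was 0.09 on the log2 scale for the members (0.0062 after correction for transcript length) and -0.003 for all tested genes, with 40 higher and 32 lower, and 49 of 72 lay within 1.25-fold. The 5 tested paralogues all had higher values in the double mutant than in wild type (median log2 fold change 0.29). The same held for the triple mutant against wild type (median 0.19), and all 5 were lower in the triple than in the double mutant (median -0.08). None was called in any comparison.

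Several members came near the threshold. Rps26 had 45.6 FPKM in the double mutant and 28.9 in wild type (q = 0.0708 in the authors' deposited table, by Cuffdiff). Rps9 had 308.2 in the double mutant and 221.7 in wild type (q = 0.075 in the same authors' deposited table, by Cuffdiff). Values that differed without passing were those of Rpl36a, with 6.97 FPKM in the double mutant and 4.22 in wild type, and of Rps27l, a paralogue that p53 activates, with 13.1 in the double mutant and 8.05 in wild type. The lowest log2 fold changes were those of Rps13 (2.43 FPKM in the double mutant and 3.62 in wild type), Rpl9 (7.98 in the double mutant and 11.8 in wild type) and Rps27a (17.7 in the double mutant and 25.8 in wild type). These 5 had q-values from 0.219 to 0.632 in the authors' deposited table, by Cuffdiff.

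**Figure D4:**
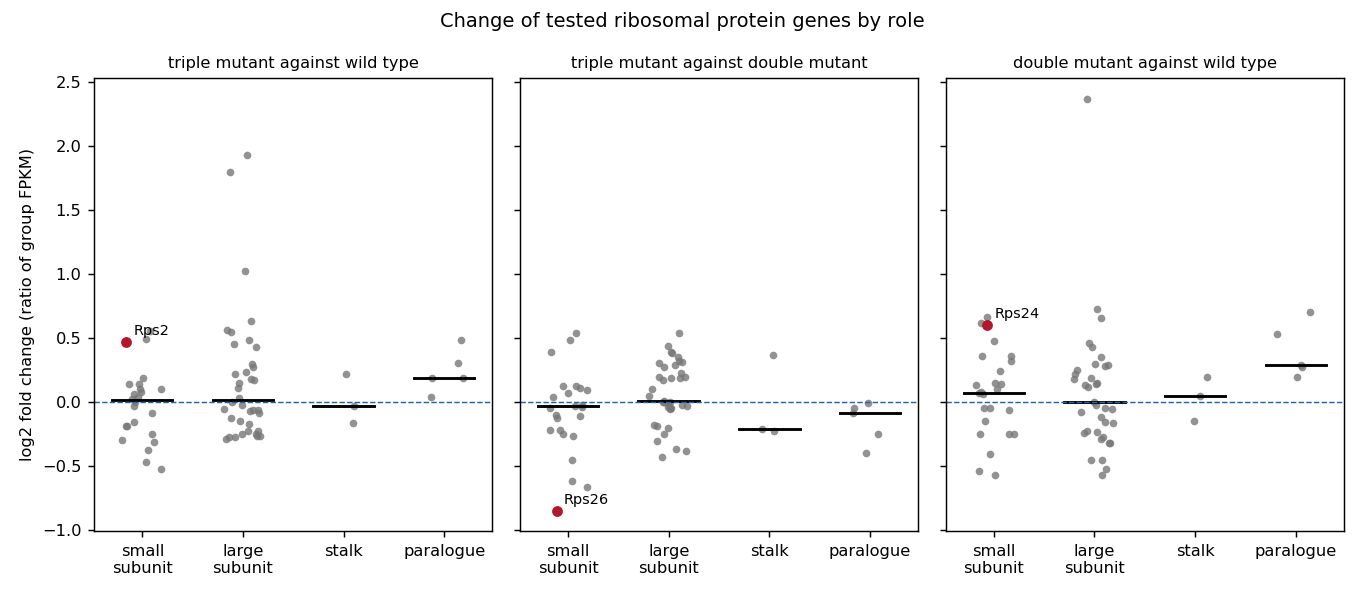
Log2 fold change of 69 of the 72 tested members in each comparison, by role; grey points did not pass a q-value of 0.05, labelled red points did, black bars are the medians of a role over all its tested members and the dashed line is the median of all tested genes. Members scatter on either side of 0 in both subunits, and Rps2, Rps26 and Rps24 are labelled, each in 1 panel.

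By order of level, the double mutant was the highest group for 31 of the 72 members tested in the triple mutant against wild type (43.1%), and the lowest for 21 (29.2%). Of the 12405 genes tested in every comparison, the double mutant was the highest group for 34.1% and the lowest for 33.7%. Rpl23a, among the 72, was not tested in the double mutant against wild type. These shares describe the family and no test was made of them.

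Members of the particle that carry other names lay within the family's range. Gnb2l1, the scaffold protein RACK1 of the small subunit, had 75.0 FPKM in the triple mutant, 68.9 in the double mutant and 76.3 in wild type. Rpl36al, an autosomal relative of Rpl36a, had 14.4 in the triple mutant, 9.55 in the double mutant and 12.3 in wild type. Fau was under 1 FPKM in each. None of them was called.

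Around the ribosome, 5 lists of translation and ribosome synthesis genes were read in the same way, with 101 genes tested against wild type. Of these, 2 were called in the triple mutant (1.98%, beside 1.52% of all tested genes) and 2 in the double mutant (1.98%, beside 2.65%), all higher. Of 10 tested genes of elongation and related growth-regulated mRNAs, 1 was called higher in the double mutant against wild type (list median 0.12 on the log2 scale, beside -0.003 over all tested genes) and none in the other comparisons: Ybx1, an mRNA-packaging protein, had 597.5 FPKM in the double mutant and 349.6 in wild type (q = 0.015 in the authors' deposited table, by Cuffdiff). Eef1a1, Eef2 and Tpt1 had no estimate, and Eef1a2, the muscle form of the elongation factor, had 168.5 FPKM in the triple mutant, 189.7 in the double mutant and 165.6 in wild type. Of 30 initiation factors (median -0.08 in the double mutant against wild type), 1 was called higher there, Eif5a, with 162.2 in the double mutant and 115.9 in wild type (q = 0.0214 in the authors' deposited table, by Cuffdiff). The most abundant initiation genes, Eif4g2 (422.5 FPKM in the triple mutant, 378.8 in the double mutant and 418.3 in wild type) and Eif4a2 (181.0 in the triple mutant, 179.0 in the double mutant and 189.3 in wild type), did not pass.

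Of 29 tested ribosome biogenesis genes, 1 was called higher in the triple mutant against wild type (list median 0.09): Nop10, a protein of the H/ACA particles that guide pseudouridylation, had 41.6 FPKM in the triple mutant and 25.6 in wild type (q = 0.0066 in the authors' deposited table, by Cuffdiff). Nucleolin (Ncl) had 90.4 in the triple mutant, 82.3 in the double mutant and 109.4 in wild type and did not pass, nor did Utp3. No gene of 13 for RNA polymerase I, which transcribes ribosomal RNA, was called by Cuffdiff in any comparison, and 1 in each had an unadjusted p under 0.05. In the triple against the double mutant 12 of the 13 had higher values (median 0.19), as did 22 of 30 initiation factors and 21 of 29 biogenesis genes, beside 49.8% of all tested genes. The remaining lists were evenly split there, with 5 of 10 elongation genes and 9 of 18 growth regulators higher. In the double mutant against wild type 6 of the 13 polymerase I genes were higher and 7 lower. The highest in level were Rrn3 and Taf1d. Among growth regulators, 19 tested against wild type, Eif4ebp1, the mTOR target that blocks cap-dependent initiation, had 133.1 FPKM in the triple mutant and 95.1 in wild type (q = 0.0271 in the authors' deposited table, by Cuffdiff); Rheb, which activates mTOR, did not pass. None of the 8 snoRNA host genes was called by Cuffdiff; 2 had an unadjusted p under 0.05 in each mutant against wild type and 1 in the triple against the double mutant, and Gas5 and Snhg1 were their highest. Over these 5 lists (elongation, initiation, biogenesis, polymerase I and growth regulators) no gene of 100 tested was called by Cuffdiff in the triple against the double mutant (beside 1.25% of all tested genes), and 8 had an unadjusted p under 0.05 (beside 8.45%).

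The cell makeup of the libraries could be read only in part. All 7 cardiomyocyte markers lacked an estimate for having too many fragments, which leaves the labelled tissue unchecked by them; Nppa, a gene of heart muscle taken after its values were seen, had 829.3 FPKM in the triple mutant, 504.8 in the double mutant and 919.3 in wild type. Summed markers were 554.9 FPKM in the triple mutant, 624.4 in the double mutant and 651.7 in wild type for 8 endothelial genes (led by Cdh5 and Pecam1). For 6 fibroblast genes (Col1a1 and Dcn the highest of those with an estimate, which Col3a1 lacked) they were 512.7 in the triple mutant, 631.3 in the double mutant and 544.2 in wild type. For 7 smooth muscle and pericyte genes they were 586.2 in the triple mutant, 580.4 in the double mutant and 555.5 in wild type. This sum does not follow most of the 7 genes. In the triple mutant 2 were higher and 5 lower than in wild type (median log2 fold change -0.12). Against the double mutant 3 were higher and 4 lower (median -0.20). For 7 erythroid genes (chiefly Hbb-b1 and Hba-a1) they were 398.1 in the triple mutant, 418.3 in the double mutant and 374.8 in wild type. For 7 macrophage genes (C1qa and Lyz2 the highest) they were 42.0 in the triple mutant, 45.8 in the double mutant and 41.3 in wild type. Mast cell markers summed to 29.0 FPKM in the triple mutant, 27.6 in the double mutant and 15.3 in wild type; Cpa3, Cma1 and Mcpt4 were called higher in the triple mutant than in wild type, and Cpa3 and Cma1 in the double mutant. Lymphocyte markers (Ptprc, Ms4a1 and 4 more) summed to under 2 FPKM in each group. Of the smooth muscle and pericyte genes Acta2 was called higher and Kcnj8 lower in the triple than in the double mutant, and Rgs5 did not pass.

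The 4 Y-linked genes Uty, Ddx3y, Eif2s3y and Kdm5d summed to 54.2 FPKM in the triple mutant, 73.7 in the double mutant and 21.9 in wild type. Ddx3y was called in both mutants against wild type, and Uty in the double mutant. The part of sex and of these cell types in the changes of Rps2, Rps24 and Rps26 was not tested, since no value per sample was at hand.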

How the data were processed

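Ventricles of 8 mice were compared: 3 triple mutant, 3 double mutant and 2 wild type. Per the labels' protocols, RNA came from a Zymo Direct-zol kit with a DNase I step, and a Takara stranded kit for total RNA made the libraries. The submitters' processing notes name Cuffdiff 2.2.1, Cufflinks 2.2.1, STAR 2.5.2, CASAVA 1.8 and the mm9 build. Of the annotation, the handling of reads with several matches and the scaling, details were not given in the sources used here. Per gene and group, the authors deposited 1 FPKM, and for each comparison its log2 fold change, Cuffdiff's statistic (a score), a p-value and a q-value. Depth is not kept in FPKM. No value per sample was used here, so the authors' test is the only one over samples, its p-values rest on the libraries they entered, and nothing in the labels says whether pups came from separate litters. The sample descriptions start with 1 of 2 prefixes, each present in every group, which could not enter a test.

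Each log2 fold change is that of the plain ratio of group FPKM (largest difference 4.72e-05), and the q-values match Benjamini-Hochberg values taken over the 3 comparisons jointly (largest difference 5.26e-07). The lowest q-value in the file is 0.0066, and the authors mark genes at 0.1. Of 83 members 72 were tested in each comparison; 9 (10 for the double mutant against wild type) had too few fragments for a test and 2 (1 there) too many. Starts are the file's plus 1. Sharing of 50-mers was counted on GENCODE M21 transcripts, either strand, leaving out genes that overlap on the same strand; the gene IDs of 80 of 83 members keep their symbol there. The genome of the files' build was not used here. Overlaps of loci were taken from the file's coordinates, and 44 members overlap another gene, 24 of them only small RNAs. Python 3.11.15, pandas 2.3.3, numpy 2.4.6 and scipy 1.17.1 were used, and the adjustment was tested on simulated data.

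Named are members past the threshold, the 3 largest rises and falls per comparison among members at 1 FPKM or more in both groups, the 6 highest by mean level, the stalk genes, Rpsa and the paralogues, and from other lists the called genes and the 2 highest. Rps29, Rpl3, Rpl21, the members under 1 FPKM and those below their copies were chosen after their values were seen. Some members that this rule takes are not reported here. The members and lists were chosen with earlier results of these data known. Alternatives tried were the threshold, the adjustment, a level minimum, a pseudocount, a transcript length correction and subsets of members.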

Additional observations from a re-analysis of the deposited data

How the results depend on the processing

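No paired analysis was possible because the files hold no value per sample, and for the same reason no replicate could be left out. For the triple mutant against wild type, the single called member, Rps2, became 3 at a q-value under 0.1, beside 357 of all 12986 tested genes. The count was 0 with the adjustment made within that comparison (1 when this was limited to genes at 5 FPKM or more). It was also 0 without members whose locus overlaps another gene. For the triple against the double mutant, the 2 called members became 1 without overlapping loci. For the double mutant against wild type, 2 became 4 at a q-value under 0.1, beside 575 of all 13034 tested genes. The count was 3 with the adjustment made within the comparison, 4 when this was limited to genes at 5 FPKM or more in either group, and 1 without overlapping loci. For counts adjusted within a comparison or limited by level, no share of all genes is at hand. A gain of the family over all genes can therefore not be read from them. In an alternative chosen after seeing the data, the count was 0 in each comparison when only members under 50% shared 50-mers entered, which leaves 13 tested members. Of all tested genes, 1.52% were called in the triple mutant against wild type, 1.25% in the triple against the double mutant and 2.65% in the double mutant against wild type. A count of 0 among 13 is near these shares. The medians of the members' log2 fold changes were not stable. For the triple mutant against wild type, the median of 0.034 became -0.046 with a correction for transcript length, 0.0097 at 5 FPKM or more, -0.0022 without paralogues and -0.059 without overlapping loci. For the triple against the double mutant, -0.017 became 0.00027 with the length correction, -0.0094 at 5 FPKM or more, -0.0080 without paralogues, -0.037 without overlapping loci and -0.047 with members under 50% shared. For the double mutant against wild type, 0.089 became 0.0062 with the length correction and 0.19 with members under 50% shared. Among the shortest tested genes, where most members lie, the median of all genes was 0.09 for the triple mutant and 0.08 for the double mutant against wild type. Within protein-coding genes the family's share of FPKM was 1.95% in the triple mutant, 2.16% in the double mutant and 2.14% in wild type, and without Rplp1 (chosen after seeing the data) it was 1.26% in the triple mutant, 1.36% in the double mutant and 1.28% in wild type. Unknown depth and 1 value per group limit what can be said of members near 1 FPKM.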

Other observations

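The Rps3 locus lists 2 snoRNAs within the gene: Snord15a had 226.1 FPKM in the triple mutant, 504.0 in the double mutant and 331.4 in wild type, and Snord15b had 78.2 in the triple mutant, 149.2 in the double mutant and 154.8 in wild type. Rps3 itself, a 40S protein at the mRNA entry, had 32.7 FPKM in the triple mutant, 35.1 in the double mutant and 38.9 in wild type. Rpl35, a 60S protein at the exit tunnel, had the largest tested difference against wild type, with 2.35 FPKM in the triple mutant, 3.17 in the double mutant and 0.616 in wild type. Its error of 2.15 on the log2 scale exceeded or nearly equalled its log2 fold changes of 1.93 (triple mutant) and 2.36 (double mutant) in the authors' deposited table, and neither passed. All were picked once their values were known.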
